A study of Mus musculus with 16 samples.

Results

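Sfi1 and the 4 centrin genes of the mouse, Cetn1, Cetn2, Cetn3 and Cetn4, were followed through 4 sorted cell types of the testis in Tex10-deficient and wild-type males. The 5 genes were taken by symbol from a table of 13101 genes, and each was found there. Sfi1 was picked because its level was higher in Tex10-deficient cells of every type, so its genotype difference is given as a description without a test. The centrins were picked by family and not by value, and their differences were tested. Tex10 was removed with Stra8-iCre, a recombinase that acts from the spermatogonial stage on, in males with 1 floxed and 1 null allele (Tex10 f/-), and the controls were wild type. All mice were 8-week-old C57BL/6J males. From each genotype there were 2 polyA libraries of spermatogonia, 2 of MI spermatocytes, 2 of MII spermatocytes and 2 of spermatids, 16 libraries in all. The sources used here give neither the sorting method nor the number of animals behind a library, so the p-values measure the spread between these libraries, which may be technical.

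Positions are those of GENCODE M21 on GRCm38, and all but Cetn3 are read from the minus strand. Sfi1 spans 3131850 to 3193463 of chromosome 11, where the start of the gene shares 167 exonic bases with the end of Drg1 on the same strand. Cetn1 spans 9615524 to 9619478 of chromosome 18, Cetn2 72913532 to 72918411 of chromosome X, Cetn3 81783077 to 81797155 of chromosome 13 and Cetn4 37307749 to 37312708 of chromosome 3.

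Centrins are small calcium-binding proteins of the calmodulin family that sit in the lumen of the centriole and at the base of cilia and flagella. Sfi1 is a long helical protein built of repeats that each hold a centrin, first described in budding yeast, where the pair forms the bridge from which the spindle pole body is duplicated; in human cells SFI1 lies with centrin at the distal end of the centriole. In the male germ line the centrioles organise the meiotic spindles and then template the sperm tail. Cetn1 is an autosomal gene derived from the X-linked Cetn2 and is used mainly in the testis. Cetn2 also belongs to the XPC complex of DNA repair, Cetn3 is the family member closest to the yeast centrin, and Cetn4 is found in ciliated cells and the testis. Genes of the X chromosome, Cetn2 among them, are silenced in spermatocytes during meiotic prophase.

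RefSeq promoter windows, 250 bases before to 50 after the start site on GRCm38.p6, were found for 3 of the 5 genes, Cetn2, Cetn3 and Cetn4. They are shown because Cetn3 and Cetn4 were high in MI spermatocytes and spermatids whereas Cetn2 was not. Capitals mark TGACG, the core of the site bound by CREB and CREM, and AACNGNC, a MYB site, on either strand; the 2 motifs do not overlap in these windows.
Cetn2: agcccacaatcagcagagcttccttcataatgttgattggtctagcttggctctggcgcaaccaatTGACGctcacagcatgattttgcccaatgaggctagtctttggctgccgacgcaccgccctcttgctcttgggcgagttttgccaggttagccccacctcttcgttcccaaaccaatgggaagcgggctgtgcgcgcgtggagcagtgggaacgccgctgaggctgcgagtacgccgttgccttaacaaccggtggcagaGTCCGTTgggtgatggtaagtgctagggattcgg
Cetn3: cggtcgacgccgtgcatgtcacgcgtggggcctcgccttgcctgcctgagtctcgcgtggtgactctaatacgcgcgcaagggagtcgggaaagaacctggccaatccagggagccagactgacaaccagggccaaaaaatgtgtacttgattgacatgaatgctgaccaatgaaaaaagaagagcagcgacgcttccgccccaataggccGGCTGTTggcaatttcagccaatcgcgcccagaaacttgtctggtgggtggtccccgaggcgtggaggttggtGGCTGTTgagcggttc
Cetn4: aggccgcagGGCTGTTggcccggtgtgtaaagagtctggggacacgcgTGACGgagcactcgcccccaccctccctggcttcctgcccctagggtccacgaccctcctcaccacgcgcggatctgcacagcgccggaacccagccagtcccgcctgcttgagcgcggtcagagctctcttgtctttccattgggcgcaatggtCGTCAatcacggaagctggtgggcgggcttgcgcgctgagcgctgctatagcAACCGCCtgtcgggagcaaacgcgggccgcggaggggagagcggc
The Cetn2 window is chrX:72918295-72918594 on the minus strand, the Cetn3 window chr13:81782997-81783296 on the plus strand and the Cetn4 window chr3:37312397-37312696 on the minus strand. The Cetn4 window held TGACG at -202 and -47 and the MYB site at -241 and 6 from the start site. The Cetn3 window held the MYB site at -39 and 35 and no TGACG, and the Cetn2 window held TGACG at -184 and the MYB site at 17. Among 32851 promoter windows of the same length, 20.8% held TGACG, 32.8% the MYB site and 1.79% the full CREB and CREM site TGACGTCA, which none of the 3 windows held. CCAAT, found in 37.4% of the windows, was present 4 times each in the Cetn2 and Cetn3 windows and 1 time in that of Cetn4. These are letter matches and describe no binding.

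Levels are given as FPKM, fragments scaled to transcript length and to the mapped fragments of the library, which can be compared between genes. Read numbers are unknown, so no counting interval can be given. All 5 genes passed the filter of at least 1 FPKM in at least 2 libraries, and none of their values was listed at 0. Titles define the groups, because the separate cell type entry names another type in 6 of 8 Tex10-deficient libraries; the nearest wild-type cells by correlation were those of the title for 8 of 8 and those of the entry for 2 of 8. Tex10 averaged 16.3 ± 3.8 FPKM in Tex10-deficient and 52.7 ± 3.8 FPKM in wild-type spermatogonia. In Tex10-deficient against wild-type cells it averaged 12.7 against 60.3 FPKM in MI spermatocytes and 7.70 against 20.6 FPKM in MII spermatocytes. In spermatids it averaged 33.3 against 107 FPKM. Its transcript was thus lower but not absent in each Tex10-deficient group (averaged over cell types, log2 difference -1.68, limma adjusted p = 0.000488). The MII libraries carried transcripts of somatic cell types: the summed level of 8 Leydig cell markers was 1317 to 1513 FPKM in Tex10-deficient and 944 to 1444 FPKM in wild-type MII libraries, against 16.6 to 244 FPKM in all other libraries. The sum of 3 Sertoli cell markers was 108 to 150 FPKM in Tex10-deficient and 113 to 134 FPKM in wild-type MII libraries, against 5.60 to 55.1 FPKM elsewhere, and that of 5 myoid and endothelial markers 458 to 640 FPKM in Tex10-deficient and 396 to 436 FPKM in wild-type MII libraries, against 2.09 to 86.7 FPKM elsewhere. The sum of 9 immune cell markers was high in 2 cell types, with 274 to 301 FPKM in Tex10-deficient and 315 to 539 FPKM in wild-type MII libraries, and 236 to 387 FPKM in Tex10-deficient and 335 to 544 FPKM in wild-type spermatogonia, against 2.32 to 22.8 FPKM in MI spermatocytes and spermatids. In spermatogonia 8 spermatogonial markers summed to 177 to 246 FPKM in Tex10-deficient and 265 to 341 FPKM in wild-type libraries. The labelled spermatocyte identity of the MII libraries had weak support. There 8 spermatocyte markers summed to 72.7 to 127 FPKM in Tex10-deficient and 169 to 509 FPKM in wild-type libraries. In MI libraries the sum was 1683 to 2715 FPKM in Tex10-deficient and 1741 to 2201 FPKM in wild-type cells. This sum does not single out spermatocytes. It was 2539 to 3393 FPKM in Tex10-deficient and 2800 to 3352 FPKM in wild-type spermatids. Marker by marker, only 2 of the 8 had a log2 difference above 0 in spermatids minus MI spermatocytes in either genotype. The median of the 8 was -1.26 in Tex10-deficient and -1.78 in wild-type cells, against 0.01 and -0.01 over all genes. Taken singly, all 8 markers were lower in wild-type MII than in wild-type MI libraries at a limma adjusted p under 0.05, as were 27.2% of all genes. In spermatids 7 spermatid markers summed to 3870 to 4132 FPKM in Tex10-deficient and 7571 to 10762 FPKM in wild-type libraries. In MII libraries these markers summed to 268 to 449 FPKM in Tex10-deficient and 526 to 619 FPKM in wild-type cells. The MI range was 64.6 to 112 FPKM in Tex10-deficient and 44.6 to 71.9 FPKM in wild-type cells. The highest Leydig (244 FPKM) and Sertoli (55.1 FPKM) sums outside MII were those of the second Tex10-deficient spermatid library. The first had 22.1 and 10.2 FPKM. Of these 2 libraries the second also had the lower Cetn1, Cetn3 and Cetn4 values, and the part of the somatic transcripts in them was not tested. Fewer cells of a type and less RNA per cell cannot be told apart in bulk samples.

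Sfi1 transcripts stood higher in every Tex10-deficient library than in every wild-type library of the same cell type. In spermatogonia Sfi1 had 2.98 and 4.06 FPKM in Tex10-deficient libraries, against 1.09 and 0.810 FPKM in wild-type libraries. In MI spermatocytes it had 5.06 and 4.17 FPKM in Tex10-deficient cells, against 0.866 and 1.04 FPKM in wild-type cells. The groups were apart in both cell types, and no Tex10-deficient value came near a wild-type one. In MII spermatocytes the values were 5.58 and 7.48 FPKM in Tex10-deficient cells, against 1.91 and 1.39 FPKM in wild-type cells. In spermatids they were 1.63 and 1.96 FPKM in Tex10-deficient cells, against 1.05 and 0.880 FPKM in wild-type cells. Spermatids showed the smallest gap of the 4 cell types, and again the libraries did not overlap.

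The mean Sfi1 level of Tex10-deficient cells was 3.71 times that of wild-type cells in spermatogonia, 4.84 times in MI spermatocytes, 3.96 times in MII spermatocytes and 1.86 times in spermatids. On the log2(FPKM + 1) scale, which understates the change of genes at such low levels, the differences were 1.21, 1.52, 1.50 and 0.51 in that order of cell types, and 1.18 on average. Of 13099 genes, 19 (0.145%) had both Tex10-deficient libraries above both wild-type libraries in each of the 4 cell types, Sfi1 among them with the largest average; since this is how Sfi1 was chosen, nothing is read from it. There were 72 (0.55%) with both Tex10-deficient libraries below in each cell type. The pseudocount sets the size of the difference: with 0.1 in place of 1 the average was 1.68, and with 5 it was 0.55.

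**Figure D1:**
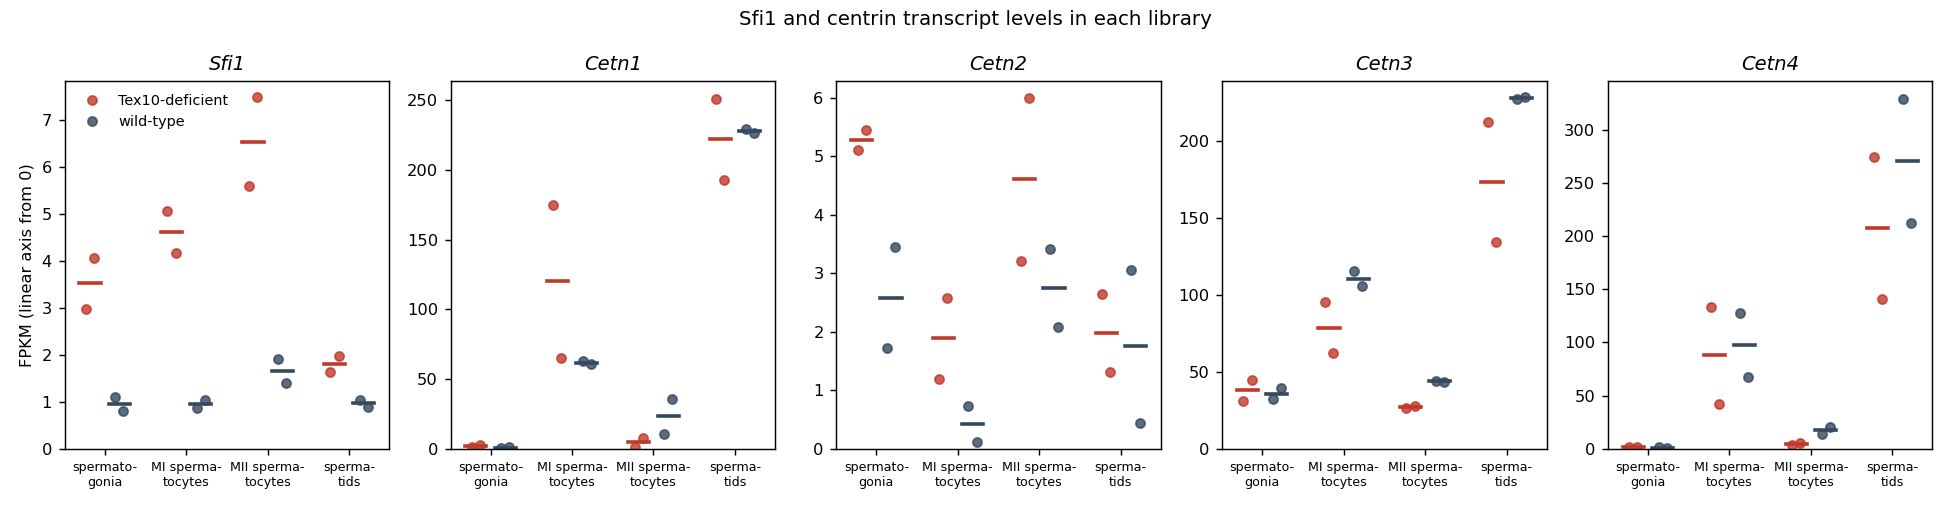
FPKM of Sfi1 and the 4 centrins in each of the 16 libraries (points) with group means (bars), by cell type, Tex10-deficient in red and wild type in dark grey; each panel has its own linear axis from 0. Sfi1 lies between 1.63 and 7.48 FPKM in Tex10-deficient and between 0.810 and 1.91 FPKM in wild-type libraries, whereas Cetn1, Cetn3 and Cetn4 follow the cell type in both genotypes.

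In the wild type Sfi1 was a low transcript in all 4 cell types. Its mean was 0.950 ± 0.198 FPKM in spermatogonia, 0.952 ± 0.122 in MI spermatocytes, 1.65 ± 0.37 in MII spermatocytes and 0.963 ± 0.117 in spermatids (SD, n = 2 each), and at most 22.0% of the tested genes were lower than Sfi1 in any of these groups. Both MII libraries, at 1.91 and 1.39 FPKM, stood above the other wild-type libraries, and the means of the other 3 cell types differed by less than the spread between their replicates. The wild-type levels are part of what chose Sfi1, so they are given without a test.

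In Tex10-deficient cells the order of the Sfi1 levels was spermatids, spermatogonia, MI and MII spermatocytes, from low to high. The mean was 3.52 ± 0.77 FPKM in spermatogonia, 4.61 ± 0.63 in MI spermatocytes, 6.53 ± 1.35 in MII spermatocytes and 1.80 ± 0.24 in spermatids (SD, n = 2 each), and 28.1% to 48.2% of the tested genes lay below it. Spermatids had a log2 difference of -1.42 from MII spermatocytes and of -1.004 from MI spermatocytes. The libraries of neighbours in this order did not overlap, though the higher spermatogonia library (4.06 FPKM) and the lower MI library (4.17 FPKM) were close. The Tex10-deficient levels chose Sfi1 too, so these differences carry no test.

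Sfi1 reads can be shared with other loci. The transcribed pseudogene Gm2420 on chromosome 5 (32720330 to 32736194, plus strand) matches Sfi1 at 93.9% identity over 2266 bases and is not among the genes of the table, and the sources used here do not say how reads that fit both were counted. Gm11399, an antisense gene, shares 77 exonic bases with Sfi1, and it is not stated whether strand was used. The part of these loci in the Sfi1 values was not tested.

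The genes beside Sfi1 on chromosome 11 were measured in the same fit, and none of the 4 was called between genotypes. Drg1, a GTP-binding protein gene that overlaps Sfi1, averaged 16.2 ± 4.2 FPKM in Tex10-deficient and 20.6 ± 1.9 FPKM in wild-type spermatogonia, and 25.2 ± 10.5 FPKM in Tex10-deficient and 19.7 ± 0.8 FPKM in wild-type MI spermatocytes (SD, n = 2 each). Its average log2 difference was -0.01 (SE 0.16, limma adjusted p = 0.99). Eif4enif1, which encodes the 4E-T protein that binds the cap-binding factor eIF4E, had -0.10 (SE 0.14, adjusted p = 0.84), and Patz1, a zinc finger transcription factor gene, had -0.33 (SE 0.19, adjusted p = 0.54).

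Pisd-ps1, a transcribed pseudogene 846 bases from Sfi1 on the opposite strand, was the neighbour with the nearest values. It averaged 22.5 ± 6.1 FPKM in Tex10-deficient and 11.2 ± 7.2 FPKM in wild-type MI spermatocytes, and 4.18 ± 1.42 FPKM in Tex10-deficient and 1.94 ± 0.34 FPKM in wild-type MII spermatocytes (SD, n = 2 each). In spermatogonia the means were close, with 7.88 ± 1.13 FPKM in Tex10-deficient and 8.26 ± 3.38 FPKM in wild-type cells. Its average log2 difference was 0.51 (SE 0.21, adjusted p = 0.39).

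**Figure D2:**
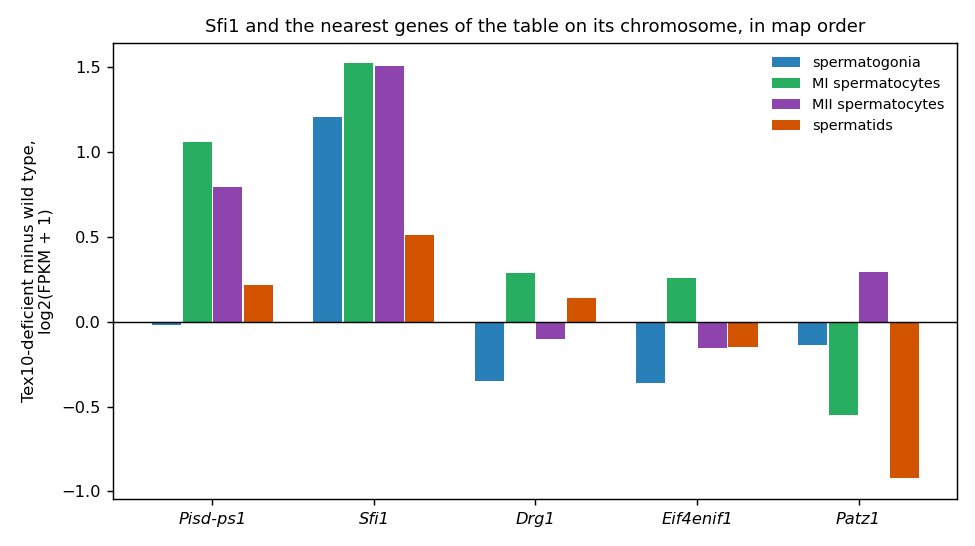
Log2 difference in FPKM + 1, Tex10-deficient minus wild type, for Sfi1 and the nearest genes of the table on chromosome 11 in map order, with 1 bar per cell type (each from 2 against 2 libraries, no error drawn). Sfi1 stands at 0.51 to 1.52 in all cell types, Pisd-ps1 at -0.02 to 1.06, and Drg1, Eif4enif1 and Patz1 have bars on both sides of 0.

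The 4 centrins fell into 2 patterns across spermatogenesis. Cetn1, Cetn3 and Cetn4 were high in MI spermatocytes and highest in spermatids, whereas Cetn2 stayed at a few FPKM and was lowest in MI spermatocytes in the wild type. Over the 16 libraries the Pearson r of log2(FPKM + 1) was 0.98 between Cetn1 and Cetn4, 0.92 between Cetn3 and Cetn4 and 0.90 between Cetn1 and Cetn3, whereas Cetn2 had -0.56 to -0.60 with these 3. Sfi1 had 0.54 with Cetn2 and -0.48 to -0.23 with the others. These values describe 16 libraries from 8 groups that share their cell types, so they carry no p. The somatic and immune marker sums given above differ between the same cell types, and their part in the centrin differences against MII spermatocytes and spermatogonia was not tested.

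Cetn1, the centrin of the testis, was nearly silent in spermatogonia, with 0.904 and 2.86 FPKM in Tex10-deficient and 0.466 and 0.885 FPKM in wild-type libraries, which did not overlap (Tex10-deficient above wild type in 16.9% of all genes). MI spermatocytes had 175 and 65.2 FPKM in Tex10-deficient libraries, against 62.6 and 60.6 FPKM in wild-type libraries. Spermatids had 251 and 193 FPKM in Tex10-deficient libraries, against 230 and 227 FPKM in wild-type libraries. The genotypes overlapped in spermatids, and in MI spermatocytes both Tex10-deficient values were above both wild-type ones, as in 15.7% of all genes. In MII spermatocytes Cetn1 had 1.54 and 7.43 FPKM in Tex10-deficient libraries, against 10.6 and 36.0 FPKM in wild-type libraries, so that both Tex10-deficient values were below both wild-type ones, as in 18% of all genes.

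Between wild-type cell types Cetn1 rose by a log2 of 5.24 in MI spermatocytes against spermatogonia (SE 0.61, limma adjusted p = 1.4e-05), where 51.9% of all genes were called and 26.3% were called higher. It was lower in MII than in MI spermatocytes by this test (-1.60, adjusted p = 0.039; 57.2% of genes called, 27.2% lower), and higher in spermatids than in MII spermatocytes (3.47, adjusted p = 0.00017; 73.8% called, 38.8% higher and 35% lower) and than in MI spermatocytes (1.87, adjusted p = 0.025; 42.3% called, 22.6% higher). The fall in MII cells was lost without the first wild-type MII library (-0.76, adjusted p = 0.36), without either wild-type MI library (adjusted p = 0.11 each), under quantile normalization (-1.39, adjusted p = 0.070) and with a pseudocount of 0.1 (-1.65, adjusted p = 0.081). The last call was lost without any 1 of the 4 wild-type libraries it compares (adjusted p of 0.088 to 0.090) and with a pseudocount of 0.1 (1.89, adjusted p = 0.060).

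Cetn4, the centrin of ciliated cells and testis, had a course like that of Cetn1. In spermatogonia it had 1.29 and 2.03 FPKM in Tex10-deficient libraries, against 1.67 and 0.455 FPKM in wild-type libraries. MI spermatocytes held 133 and 42.5 FPKM in Tex10-deficient libraries, against 127 and 67.9 FPKM in wild-type libraries. In both cell types the genotypes overlapped, and replicates of a group lay far apart. In MII spermatocytes it had 3.14 and 5.83 FPKM in Tex10-deficient libraries, against 14.2 and 20.8 FPKM in wild-type libraries, with no overlap, as in 18% of all genes. Spermatids held 275 and 141 FPKM in Tex10-deficient libraries, against 329 and 212 FPKM in wild-type libraries, which overlapped.

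In the wild type Cetn4 rose in MI spermatocytes against spermatogonia (log2 difference 5.58, SE 0.53, limma adjusted p = 3.0e-06), fell in MII against MI spermatocytes (-2.37, adjusted p = 0.0018), and rose in spermatids against MII spermatocytes (3.86, adjusted p = 2.1e-05) and against MI spermatocytes (1.50, adjusted p = 0.035). The last call was lost without the second wild-type MI library (1.05, adjusted p = 0.23) or without either wild-type spermatid library (adjusted p = 0.19 and 0.055), and with a pseudocount of 0.1 (1.51, adjusted p = 0.074). Cetn4 overlaps Bbs12, a gene of a chaperonin-like protein of the ciliary base, by 32 bases on opposite strands. Bbs12 averaged 12.8 ± 6.4 FPKM in Tex10-deficient and 15.5 ± 1.8 FPKM in wild-type spermatids, and 2.54 ± 0.04 FPKM in Tex10-deficient and 2.39 ± 0.93 FPKM in wild-type MI spermatocytes (SD, n = 2 each). The part of shared reads was not tested. The unprocessed pseudogene Gm7094 on chromosome 1 matches Cetn4 at 99.5% identity over 366 bases and is not among the genes of the table; its part in the Cetn4 values was not tested.

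Cetn3, the centrin nearest to that of yeast, was the most even of the 3 and was well expressed before meiosis too. In spermatogonia it had 30.9 and 44.8 FPKM in Tex10-deficient libraries, against 32.3 and 39.3 FPKM in wild-type libraries. Its values in MI spermatocytes were 95.1 and 62.0 FPKM in Tex10-deficient libraries, against 115 and 106 FPKM in wild-type libraries. The genotypes overlapped in spermatogonia, and in MI spermatocytes both Tex10-deficient values lay below both wild-type ones, as in 18.4% of all genes. Those of MII spermatocytes were 26.6 and 28.0 FPKM in Tex10-deficient libraries, against 44.1 and 43.5 FPKM in wild-type libraries. Those of spermatids were 213 and 134 FPKM in Tex10-deficient libraries, against 227 and 229 FPKM in wild-type libraries. In these 2 cell types too the Tex10-deficient libraries were both lower, as in 18% and 15.9% of all genes.

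In the wild type Cetn3 rose in MI spermatocytes against spermatogonia (log2 difference 1.61, SE 0.30, limma adjusted p = 0.00055), fell in MII against MI spermatocytes (-1.32, adjusted p = 0.0019), and rose in spermatids against MII spermatocytes (2.35, adjusted p = 1.1e-05) and against MI spermatocytes (1.04, adjusted p = 0.012). The last call was lost without the second wild-type MI library or either wild-type spermatid library (adjusted p of 0.055 to 0.067). Between 85.5% and 96.4% of the tested genes lay below Cetn3 in each of the 8 groups. The antisense gene Gm17259 shares 270 exonic bases with Cetn3 and its part was not tested.

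Cetn2, the X-linked centrin of the XPC complex, was the lowest of the family in MI spermatocytes and spermatids of both genotypes. In spermatogonia it had 5.10 and 5.44 FPKM in Tex10-deficient libraries, against 1.72 and 3.45 FPKM in wild-type libraries. In MI spermatocytes it had 1.19 and 2.58 FPKM in Tex10-deficient libraries, against 0.738 and 0.112 FPKM in wild-type libraries. In both cell types the Tex10-deficient values were the higher ones without overlap, as in 16.9% of all genes in spermatogonia and 15.7% in MI spermatocytes. In MII spermatocytes it had 3.21 and 5.99 FPKM in Tex10-deficient libraries, against 3.41 and 2.08 FPKM in wild-type libraries. In spermatids it had 2.64 and 1.31 FPKM in Tex10-deficient libraries, against 3.06 and 0.440 FPKM in wild-type libraries. The genotypes overlapped in the last 2 cell types. In spermatogonia no member was lower in both Tex10-deficient libraries than in both wild-type ones (19.6% of all genes), and in MII spermatocytes and spermatids no centrin was higher in both (17.3% and 11.7%).

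In the wild type Cetn2 fell in MI spermatocytes against spermatogonia (log2 difference -1.32, SE 0.49, limma adjusted p = 0.035; 25.7% of all genes called lower) and was higher in MII than in MI spermatocytes (1.41, adjusted p = 0.024; 30% called higher). Both calls were lost without the second wild-type MI library (adjusted p = 0.22 and 0.17), the first also without the second wild-type spermatogonia library (-0.97, adjusted p = 0.21) and the second also without the first wild-type MII library (1.15, adjusted p = 0.14). With a pseudocount of 5 neither passed (-0.48, adjusted p = 0.074, and 0.51, adjusted p = 0.051), and the second was lost too under quantile normalization (0.93, adjusted p = 0.11) and with array weights (adjusted p = 0.059). Spermatids did not differ by the test from MII spermatocytes (-0.61, interval -1.66 to 0.44) or from MI spermatocytes (0.80, interval -0.25 to 1.85). Without the first wild-type spermatid library the difference from MII spermatocytes was called (-1.36, adjusted p = 0.031), and without the second wild-type spermatid library that from MI spermatocytes was (1.55, adjusted p = 0.037). Nsdhl, a gene of cholesterol synthesis that begins within the Cetn2 promoter window on the other strand, was likewise lowest in MI spermatocytes, with 1.94 ± 1.08 FPKM in Tex10-deficient and 1.52 ± 0.85 FPKM in wild-type cells (SD, n = 2 each).

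The same steps were seen in Tex10-deficient cells for Cetn1, Cetn3 and Cetn4. In MI spermatocytes against spermatogonia the log2 differences were 5.31 for Cetn1, 1.02 for Cetn3 and 4.86 for Cetn4, each past the threshold (limma adjusted p = 1.7e-05, 0.011 and 1.2e-05; 51.2% of all genes called, 26.5% higher and 24.7% lower). In MII against MI spermatocytes they were -4.54, -1.46 and -3.84 in the same order of genes (adjusted p = 2.6e-05, 0.00071 and 3.1e-05; 61.7% called, 30.1% lower and 31.6% higher), and in spermatids against MII spermatocytes 5.58, 2.59 and 5.22 (adjusted p = 2.1e-06, 3.1e-06 and 1.2e-06; 75.7% called, 38.9% higher and 36.9% lower). In spermatids against MI spermatocytes (42.4% called, 23.6% higher and 18.8% lower) only Cetn3 among the 4 centrins passed (1.13, adjusted p = 0.0077), while Cetn1 had 1.03 (adjusted p = 0.19) and Cetn4 had 1.37 (adjusted p = 0.051). Cetn4 passed there without the first Tex10-deficient MI library (2.18, adjusted p = 0.0087), the second Tex10-deficient spermatid library (1.85, adjusted p = 0.037) or either wild-type MII library (adjusted p = 0.049 each). It also passed without all MII libraries (adjusted p = 0.047), under median-of-ratios scaling (1.39, adjusted p = 0.041), with a pseudocount of 5 (1.32, adjusted p = 0.033), with a filter of 5 FPKM (adjusted p = 0.049) and with a replicate block (adjusted p = 0.036). The rise of Cetn3 in MI spermatocytes was lost without the first Tex10-deficient spermatogonia library or the first MI library (adjusted p = 0.11 and 0.12), and its spermatid call without the second MI library or the first spermatid library (adjusted p = 0.086 and 0.092). No step passed for Cetn2 in Tex10-deficient cells (adjusted p of 0.060 to 0.94), though its drop in MI spermatocytes passed without either wild-type spermatid library (adjusted p = 0.034 each) or with a pseudocount of 5 (-0.58, adjusted p = 0.033).

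The comparison of spermatids with MI spermatocytes depends on how libraries are scaled to each other. Under quantile normalization the median of all genes in this wild-type comparison was -0.17, against -0.01 on the deposited scale, and the spermatid rises of Cetn1 (0.81, adjusted p = 0.35), Cetn3 (0.04, adjusted p = 0.93) and Cetn4 (0.48, adjusted p = 0.52) no longer passed. Median-of-ratios scaling moved no median by over 0.1 and ended none of these 3 calls. Quantile normalization also ended the call of Cetn3 in Tex10-deficient spermatids (0.12, adjusted p = 0.76) and in Tex10-deficient MI spermatocytes against spermatogonia (0.30, adjusted p = 0.37). In wild-type MI spermatocytes against spermatogonia the median of all genes was -0.25 under quantile normalization, against -0.07, and Cetn1 (4.98), Cetn3 (0.84) and Cetn4 (5.34) were still called.

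No centrin was called between Tex10-deficient and wild-type cells in any cell type or on average. The share of all genes called was itself small: 0.0153% in spermatogonia, 0.168% in MI spermatocytes, 0.00763% in MII spermatocytes, 0% in spermatids, where 284 genes had an unadjusted p under 0.05 by limma, and 0.0992% on average. The most negative centrin differences were those of MII spermatocytes, with a log2 difference of -2.16 for Cetn1 (interval -3.48 to -0.85, adjusted p = 0.117), -1.78 for Cetn4 (interval -2.92 to -0.64, adjusted p = 0.13) and -0.66 for Cetn3 (interval -1.30 to -0.02, adjusted p = 0.35). In the same libraries the spermatocyte markers summed to at most 127 FPKM in Tex10-deficient and at least 169 FPKM in wild-type MII cells. The immune markers summed to at most 301 FPKM in Tex10-deficient and at least 315 FPKM in wild-type MII cells. The 7 spermatid markers summed to at most 449 FPKM in Tex10-deficient and at least 526 FPKM in wild-type MII cells. In this comparison 1 of the 7 had a log2 difference above 0, and 0 were called. In spermatids the sum of the spermatid markers was likewise lower in Tex10-deficient libraries. There 2 of the 7 had a log2 difference above 0, and 0 were called. The part of all these markers in the centrin values was not tested. Cetn1 in MII cells rests on single libraries: it was called without the first wild-type MII library (-3.00, adjusted p = 0.0094), where 9.57% of all genes were called, or without the second Tex10-deficient one (-3.03, adjusted p = 0.041), where 1.81% were, and had -1.33 and -1.30 (adjusted p = 0.88 and 0.83) without the second wild-type or the first Tex10-deficient MII library.

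Averaged over the 4 cell types, Cetn2 had a log2 difference of 0.67 (interval 0.15 to 1.19, limma adjusted p = 0.32), Cetn3 -0.39 (interval -0.71 to -0.07, adjusted p = 0.35), Cetn4 -0.52 (interval -1.09 to 0.05, adjusted p = 0.50) and Cetn1 -0.18 (interval -0.84 to 0.48, adjusted p = 0.87). The intervals of Cetn2 and Cetn3 did not include 0 before adjustment over all genes. Without the MII libraries Cetn1 had an average of 0.48. Whether the genotype difference varied between cell types was tested with an F test, which passed for none of the 4 centrins (adjusted p of 0.67 to 1.0) and for 0 of 13099 genes, 850 of them with an unadjusted p under 0.05.

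**Figure D3:**
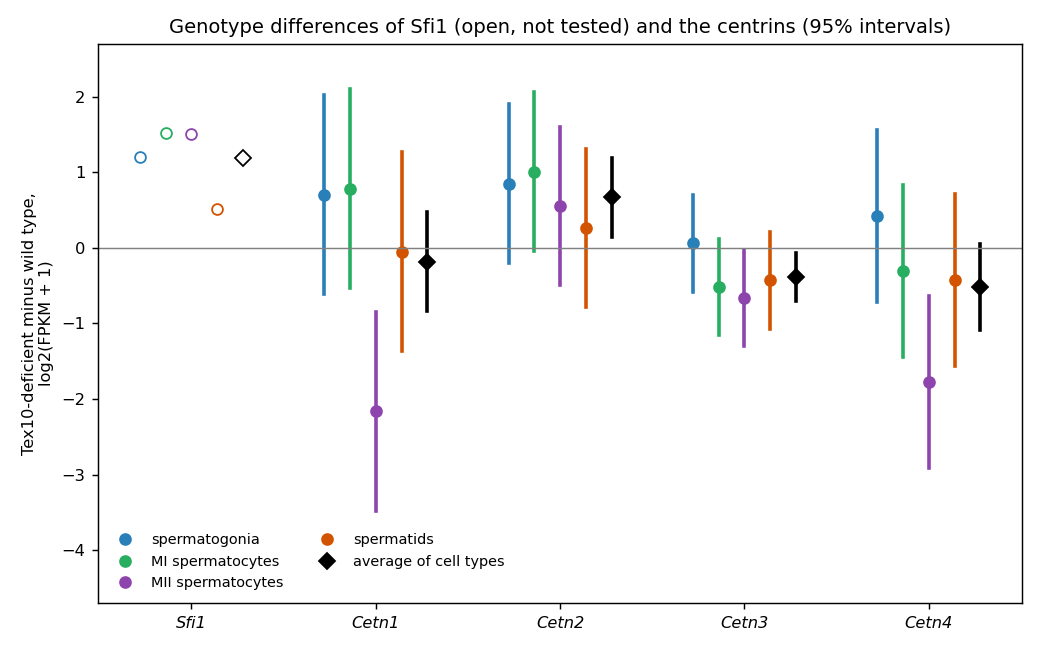
Log2 difference in FPKM + 1, Tex10-deficient minus wild type, for each gene in the 4 cell types (circles) and on average (diamonds); lines are unadjusted 95% intervals from the limma fit, and the open Sfi1 symbols have none because Sfi1 was chosen on these values. Sfi1 lies between 0.51 and 1.52, and the centrins furthest from 0 are Cetn1 at -2.16 and Cetn4 at -1.78 in MII spermatocytes.

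Cetn3 made up most of the centrin transcripts in spermatogonia, while in spermatids Cetn1, Cetn3 and Cetn4 shared them. In spermatogonia Cetn3 gave 80.9% and 81.3% of the summed centrin FPKM in Tex10-deficient libraries, against 89.1% and 89.3% in wild-type libraries. Cetn2 gave 9.87% and 13.3% there in Tex10-deficient libraries, against 4.75% and 7.81% in wild-type libraries. In spermatids the shares of Cetn1, Cetn3 and Cetn4 were, in this order of genes, 33.9% to 41.0%, 28.6% to 28.7% and 30.0% to 37.1% in Tex10-deficient cells, against 29.1% to 33.9%, 28.8% to 34.3% and 31.7% to 41.7% in wild-type cells. In MI spermatocytes Cetn1 gave 37.8% and 43.3% in Tex10-deficient libraries, against 20.5% and 25.8% in wild-type libraries, while Cetn3 gave 23.6% and 36.0% in Tex10-deficient libraries, against 37.7% and 45.2% in wild-type libraries. These shares are descriptions of 2 libraries a group and were not tested.

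The summed centrin level was 34.5 and 47.2 FPKM in Tex10-deficient MII cells, against 72.4 and 102 FPKM in wild-type MII cells, and stood at 741 and 469 FPKM in Tex10-deficient spermatids, against 789 and 668 FPKM in wild-type spermatids. Sfi1 per 100 FPKM of centrin was therefore spread over more than the level of Sfi1 itself. It was 7.79 and 7.37 in Tex10-deficient spermatogonia, against 3.01 and 1.84 in wild-type spermatogonia, and 16.2 and 15.8 in Tex10-deficient MII spermatocytes, against 2.64 and 1.36 in wild-type MII spermatocytes. In MI spermatocytes it was 1.25 and 2.42 in Tex10-deficient cells, against 0.283 and 0.443 in wild-type cells, and in spermatids 0.219 and 0.419 in Tex10-deficient cells, against 0.132 and 0.132 in wild-type cells. Since the ratio contains Sfi1, its difference between genotypes follows in part from how Sfi1 was chosen.

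**Figure D4:**
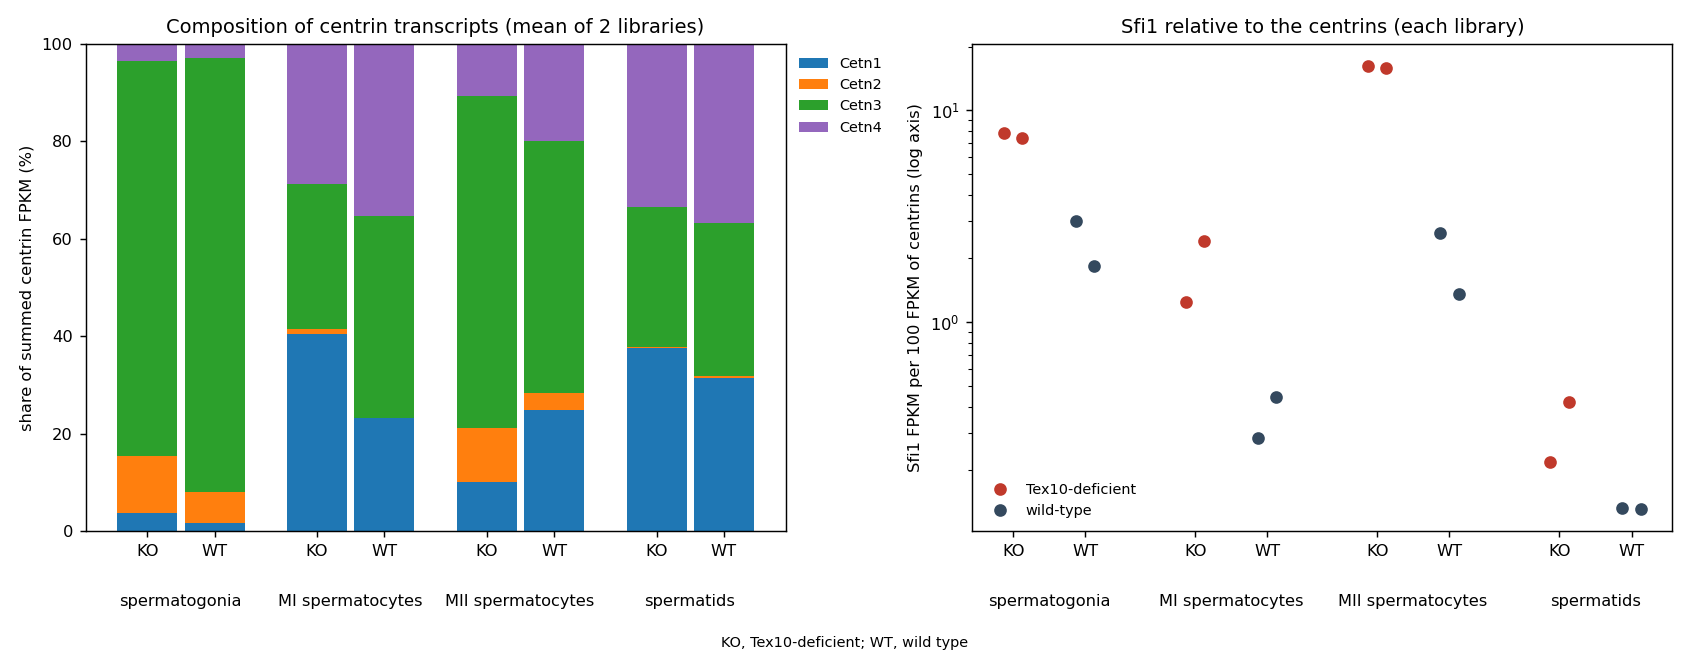
Left, share of each centrin in the summed centrin FPKM (mean of 2 libraries) in Tex10-deficient (KO) and wild-type (WT) cells of each type; right, Sfi1 FPKM per 100 FPKM of centrins in each library on a log axis. Cetn3 makes up at least 80.9% in all spermatogonia libraries, and the ratio runs from 0.219 to 16.2 in Tex10-deficient and from 0.132 to 3.01 in wild-type libraries.

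Among 13093 genes, those with the highest Pearson r of log2(FPKM + 1) to each member over the 16 libraries were named. Nearest to Cetn1 were 1700010K23Rik, 1700029F12Rik and Spata4, a spermatogenesis gene, at 0.99 each; Spata4 averaged 2826 ± 277 FPKM in Tex10-deficient and 2550 ± 146 FPKM in wild-type spermatids (SD, n = 2 each). Nearest to Cetn4 were Hagh, the glyoxalase II gene, 1700012B09Rik and Gm11837, at 0.99 each. Nearest to Cetn3 were Cand1, a regulator of cullin ubiquitin ligases, Gmps, an enzyme of GMP synthesis, and 1810013L24Rik, at 0.98 each. Cetn2 had lower values, with 0.81 for Cotl1, an actin-binding protein gene, 0.81 for Usp11, an X-linked deubiquitinase gene, and 0.80 for Vta1.

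Sfi1 had the least close companions. Its highest values were 0.79 for Ercc6l2, a DNA repair helicase gene, 0.77 for Stk19 and 0.76 for the noncoding RNA Dancr. Ercc6l2 averaged 12.2 ± 0.4 FPKM in Tex10-deficient and 8.26 ± 0.33 FPKM in wild-type MI spermatocytes, and 7.28 ± 1.40 FPKM in Tex10-deficient and 7.31 ± 1.58 FPKM in wild-type spermatids (SD, n = 2 each). The 3 were picked in part through the Sfi1 difference between genotypes, so their own genotype differences carry no test. These r values describe libraries that share cell type and genotype and carry no p.

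The other genes of the centriole and centrosome were followed as 7 lists holding 87 tested genes. Between Tex10-deficient and wild-type cells 0 of the 87 were called in any cell type or on average by limma. At an unadjusted p under 0.05 there were 2 in spermatogonia, 6 in MI spermatocytes, 25 in MII spermatocytes, 0 in spermatids and 13 on average. Over all 13099 genes there were 865, 765, 1738, 284 and 1437 in the same order. On average 20 lay above 0 and 67 below, with a median log2 difference of -0.15, against -0.02 over all genes tested. In MII spermatocytes 68 lay below 0 with a median of -0.40 (all genes -0.02). The lower spermatocyte and spermatid marker sums given above concern the same libraries, and their part was not tested. The smallest adjusted p on average belonged to Plk1, the mitotic kinase that matures centrosomes (-0.996, SE 0.22, adjusted p = 0.12), Stil, a centriole assembly factor (-0.78, SE 0.20, adjusted p = 0.16), and Aurka, a spindle pole kinase (-0.92, SE 0.24, adjusted p = 0.16), named after their values were seen. Without the first wild-type MII library 8 of the list genes were called lower on average, and 3.91% of all genes were then called.

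Between wild-type MI spermatocytes and spermatogonia 46 of the 87 list genes were called higher (52.9%) and 12 lower (13.8%), against 26.3% and 25.7% of all genes. The median log2 difference was 1.08, against -0.07 over all genes. Without the second wild-type spermatogonia library the count called lower was 7. Among centriole duplication genes Cep63, a scaffold of the mother centriole, had a log2 difference of 4.15 (SE 0.43, limma adjusted p = 4.6e-06) and Cep120, which acts in centriole elongation, 2.16 (adjusted p = 2.5e-05), whereas Usp9x, an X-linked deubiquitinase gene, had -1.42 (adjusted p = 0.0076); 4 of 17 were called higher and 1 lower. Of 14 genes of the centriole distal end, where Sfi1 lies in human cells, 9 were called higher and 1 lower. Poc1b, a protein of the centriole wall, had 3.32, and the gene called lower was the X-linked Ofd1 with -1.53 (adjusted p = 0.0037).

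Of 11 appendage genes 6 were called higher and 1 lower, Odf2, which also builds the outer dense fibres of the sperm tail, by 3.89 and the ciliogenesis kinase Ttbk2 by 2.25. Odf2 averaged 1007 FPKM in wild-type MI spermatocytes and 68.3 FPKM in wild-type spermatogonia. Of 14 genes of the pericentriolar material 5 were called higher, with Aurka at 3.35 and Mzt2 at 2.24, and 6 lower, with the gamma-tubulin ring subunits Tubgcp3 at -1.59 and Tubgcp6 at -1.18. Of 9 centriolar satellite genes 7 were called higher and 0 lower, with Cep72 at 3.20 and Spag5 at 2.79. Of 14 genes of the sperm centriole and head-tail coupling 11 were called higher and 0 lower, with Iqcg at 5.20 and Ccdc42 at 4.60.

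The list of other centrin partners held 8 tested genes, of the XPC and TREX-2 complexes and of DNA damage sensing outside both. In wild-type MI spermatocytes 4 were called higher and 3 lower. Pcid2, a TREX-2 subunit, had 1.40 (limma adjusted p = 0.0013), while the damage sensor Ddb2 had -2.02 (adjusted p = 0.00047) and Mcm3ap, the scaffold of TREX-2, -1.02 (adjusted p = 0.0027). Xpc itself, the centrin 2 partner that names the complex, averaged 3.84 ± 0.71 FPKM in Tex10-deficient and 2.96 ± 0.19 FPKM in wild-type MI spermatocytes, and 8.08 ± 2.77 FPKM in Tex10-deficient and 8.10 ± 1.09 FPKM in wild-type spermatogonia (SD, n = 2 each); it was named for this role after its values were seen.

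Between wild-type spermatids and MI spermatocytes 21 of the 87 were called higher (24.1%) and 13 lower (14.9%), near the 22.6% and 19.8% of all genes. Quantile normalization turned this split to 10 higher and 21 lower, and without the second wild-type spermatid library it was 14 higher and 7 lower. The list furthest from the background was that of the sperm centriole and head-tail coupling, with 9 of 14 called higher and 0 lower, among them Odf1, a tail fibre protein needed for coupling head and tail, with a log2 difference of 6.01 (adjusted p = 2.1e-06), and Spatc1l with 4.47. Fam161a, of the inner scaffold of the centriole, had 2.76 and Poc1b 1.61. Ccp110, the cap of the centriole that binds centrin, was lower in spermatids (-3.12, SE 0.36, adjusted p = 1.5e-05), with 14.3 FPKM in wild-type spermatids and 130 FPKM in wild-type MI spermatocytes. Cntrob and Cep85 of centriole duplication had -2.74 and -2.19, and Tubgcp5 and Tubgcp3 -2.52 and -0.94, while Usp9x and Sass6 had 1.71 and 1.07 and Akap9 and Plk1 1.53 and 1.27. Sclt1 and Cep83 of the distal appendages had 2.19 and 1.53 and Fbf1 -1.11, Ssx2ip of the satellites had 1.64, and among the other partners Rad23b had 1.34 and the TREX-2 subunit Eny2 -1.68.

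**Figure D5:**
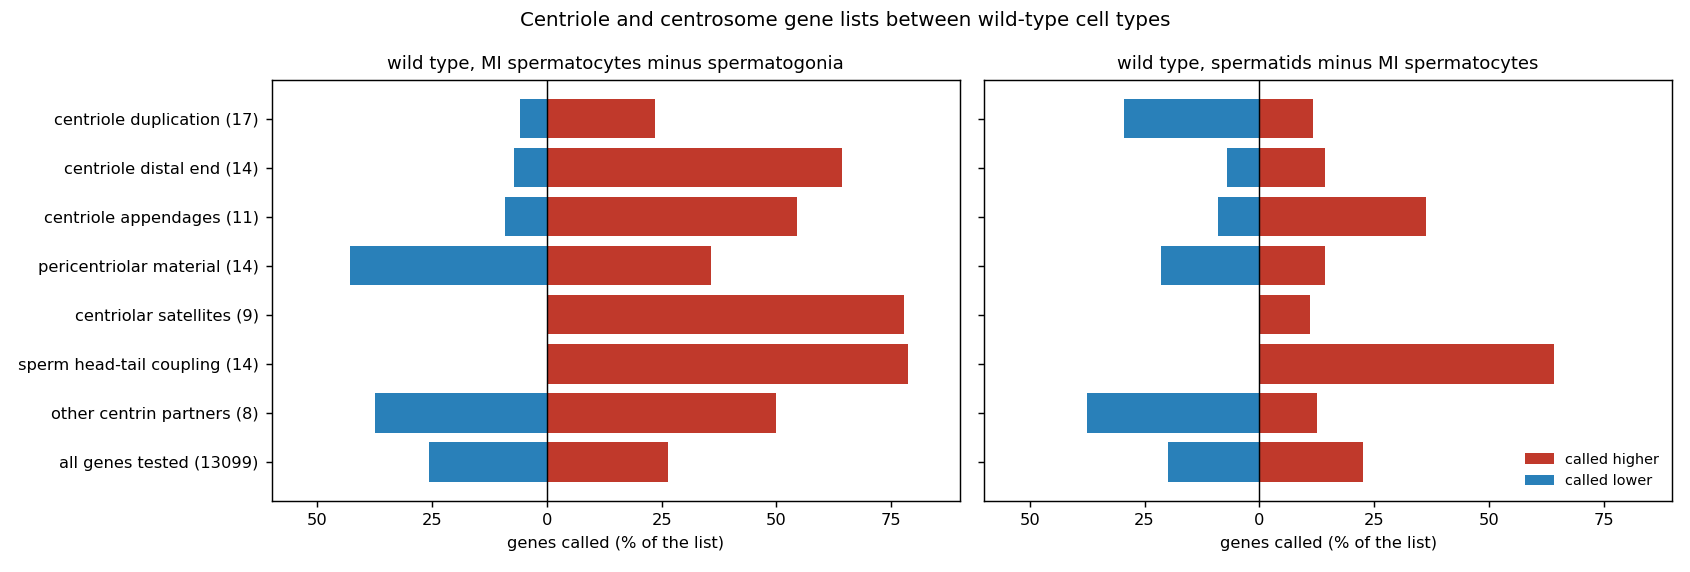
Share of the tested genes of each list (number in brackets) called higher (red, right of 0) or lower (blue, left of 0) at a limma adjusted p under 0.05 in wild-type MI spermatocytes against spermatogonia (left) and wild-type spermatids against MI spermatocytes (right), with all genes tested in the lowest bar. Sperm head-tail coupling genes reach 78.6% and 64.3% called higher with 0% lower, against 26.3% and 22.6% higher over all genes.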

How the data were processed

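Bulk polyA RNA-seq was measured in 16 libraries. Per the submitters' processing notes, reads were aligned to mm10 and quantified by the authors, with STAR 2.7.6a, Cufflinks 2.2.1, Trim Galore 0.6.3, FastQC 0.10.1 and cutadapt among the tools listed; strandedness, gene annotation and the treatment of reads that fit several loci were not stated there. The values deposited by the authors were read as FPKM with 1 added, and this 1 was subtracted. Their minimum is 1, and their decimals change at 11 and 101 rather than at 10 and 100. Values of 10 to 11 carry up to 5 decimals and those of 11 to 100 up to 4. Values of 100 to 101 carry up to 4 and those over 101 up to 3. The gene 1110002L01Rik, with a letter in place of a value, was left out. FPKM totals of 187713 to 533859 are not a depth, and read numbers are unknown.

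A minimum of 1 FPKM in 2 or more libraries left 13099 genes, fitted as log2(FPKM + 1) with limma 3.58.1 (R 4.3.3; lmFit, contrasts.fit, eBayes with a trend) in 8 groups of 2, with 8 residual degrees of freedom. A call is an adjusted p under 0.05 (Benjamini-Hochberg over all genes), and intervals are unadjusted 95% intervals. The steps were tested on simulated data. Members and lists were chosen with earlier results of these data known. From each list up to 2 called genes per direction were named in each genotype comparison, in wild-type MI spermatocytes against spermatogonia and in wild-type spermatids against MI spermatocytes, by the smallest adjusted p where the higher group averaged 5 FPKM or more; for each member the 3 genes of highest r, among genes with a mean of at least 1 FPKM, and up to 3 neighbours of Sfi1 on each side were named. Some genes that this rule names are not reported here. Positions are from GENCODE M21 and promoters from RefSeq; transcripts sharing at least 90% identity over at least 100 bases were sought with BLAST 2.17.0. Other software was pandas 2.3.3 under Python 3.11.15, with matplotlib 3.10.9 for figures. The log2 differences of the 5 members were also computed under alternative settings. So were the list genes called on genotype average, in wild-type MI spermatocytes against spermatogonia and in wild-type spermatids against MI spermatocytes. Scaling was quantile normalization or median-of-ratios, the pseudocount 0.1 or 5, and the filter 5 FPKM or none. Others were array weights, no eBayes trend, a replicate block, no MII libraries, grouping by the cell type entry, and each library left out in turn.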

Additional observations from a re-analysis of the deposited data

How the results depend on the processing

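The log2 differences of the members and the list counts named above were recomputed under the alternatives. With 2 libraries a group, what any of them can show is limited. With a pseudocount of 0.1 the Sfi1 differences, Tex10-deficient minus wild type, were 1.78 in spermatogonia, 2.16 in MI spermatocytes, 1.92 in MII spermatocytes, 0.83 in spermatids and 1.68 on average; with 5 they were 0.52, 0.69, 0.79, 0.19 and 0.55, all in the same direction. Quantile normalization moved the Sfi1 difference in MII spermatocytes to 1.91, turned the wild-type Sfi1 steps to -0.082 for MI minus spermatogonia, -0.16 for MII minus MI and 0.49 for spermatids minus MII, and gave 0.039 for the Cetn1 genotype difference in spermatids, -0.00216 for Cetn1 in Tex10-deficient spermatids minus MI and 0.20 for Cetn2 in wild-type spermatids minus MII. It moved the median of all genes to -0.25 in wild-type MI minus spermatogonia, and it gave 10 list genes higher and 21 lower in wild-type spermatids minus MI. Median-of-ratios scaling gave -0.014 for the first Sfi1 step, and without the MII libraries the Cetn1 average was 0.48.

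Grouping by the cell type field, which 2 of 8 Tex10-deficient libraries matched by correlation, gave Sfi1 genotype differences of 1.40, 1.75, 0.60 and 0.997 in the 4 cell types. In MI spermatocytes it gave -3.46 for Cetn1, 2.27 for Cetn2, -1.61 for Cetn3 and -4.37 for Cetn4, in MII spermatocytes 3.34, -0.38, 1.68 and 3.40 for the same genes, and -0.30 for Cetn3 in spermatogonia. The 4 MI values and those of Cetn1, Cetn3 and Cetn4 in MII passed (limma adjusted p of 0.0015 to 0.024), where 24.7% of all genes were called in MI and 37.4% in MII spermatocytes. It ended the wild-type calls of Cetn2 in MI minus spermatogonia, of Cetn1, Cetn2 and Cetn3 in MII minus MI, and of Cetn1, Cetn3 and Cetn4 in spermatids minus MI. In Tex10-deficient MII minus MI it gave -0.72 for Sfi1, 5.21 for Cetn1, -1.25 for Cetn2, 1.98 for Cetn3 and 5.40 for Cetn4, and in spermatids minus MII -0.90 for Cetn1, 0.025 for Cetn2, -0.63 for Cetn3 and -1.29 for Cetn4. Cetn2 had 0.40 in Tex10-deficient MI minus spermatogonia and -1.22 in spermatids minus MI. List genes called were 30 higher and 1 lower in wild-type MI minus spermatogonia and 0 in spermatids minus MI.

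Whether the replicate numbers pair the libraries cannot be settled from 2 libraries a group (r of deviations 0.20, 0.004, 0.31 and -0.13 in the 4 cell types). A replicate block raised 1 value over the threshold, Cetn4 in Tex10-deficient spermatids minus MI spermatocytes (1.37, limma adjusted p = 0.036), and changed no other call of a member or count of list genes by over 1.5 times.

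Leaving out 1 library at a time gave Sfi1 genotype differences in MII spermatocytes of 1.32 to 1.69 and wild-type Sfi1 steps of -0.10 to 0.11 for MI minus spermatogonia and -0.056 to 0.071 for spermatids minus MI, and for Sfi1 in Tex10-deficient spermatids minus MI -1.12 to -0.89. Genotype differences of Cetn1 ran from -3.03 to -1.30 in MII spermatocytes, -0.24 to 0.14 in spermatids and -0.40 to 0.035 on average, of Cetn2 from -0.49 to 1.01 in spermatids, of Cetn3 from -0.20 to 0.32 in spermatogonia, and of Cetn4 from -0.022 to 0.86 in spermatogonia, -1.11 to 0.51 in MI spermatocytes and -0.90 to 0.054 in spermatids. Cetn2 ran from -1.36 to 0.14 in wild-type spermatids minus MII and from -0.30 to 0.40 in Tex10-deficient spermatids minus MI. List genes called lower were 0 to 8 for the genotype average, 7 to 12 for wild-type MI minus spermatogonia and 7 to 16 for wild-type spermatids minus MI; the extreme counts come without the first wild-type MII library (8, 12 and 16), the second wild-type spermatogonia library (7) and the second wild-type spermatid library (7).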
